A study of Mus musculus with 4 samples.

Results

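The regions described here are 322 short stretches of the mouse genome. Integration sites of the library with the wild-type PHD finger of TAF3 were crowded in them, and the library with wild-type full-length TAF3 had no listed site. The stretches were chosen by the measured site positions of these 2 wild-type libraries. Neighbouring sites of the wild-type PHD library (PHD WT) with gaps of at most 1000 bp were joined, chains of 4 or more sites were kept as foci, and 500 bp was added on each side. Of the 1734 foci found in this way, 322 (18.6%) held no site of the wild-type full-length library (Full WT) and 1412 held at least 1. The 322 regions contained 1650 of the 11601 PHD WT sites that lay in foci and of the 25363 PHD WT sites in all, and they covered 647 kb.

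All 4 libraries came from Psip1 (-/-) mouse embryonic fibroblasts (the E2 MEF-KO line) of strain C57BL/6, which lack LEDGF/p75, the cellular protein that normally holds HIV integrase on chromatin. Each received by nucleofection a plasmid that encodes TAF3 joined to the integrase-binding domain of LEDGF, in 1 of 4 forms: full-length TAF3 or its PHD domain alone, each as the wild type (WT) or with the M880A substitution (Mut in the labels). GFP-positive cells were sorted 24 to 36 h later, infected with 500 ng of a pseudotyped HIV-based luciferase vector, and collected after 48 to 72 h. How much of each fusion the sorted cells made was not measured here, and each form was represented by 1 library, so differences below are between libraries, with no replicate check and no p-value.

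TAF3 is a subunit of TFIID, the general transcription factor that recognises core promoters and starts assembly of the RNA polymerase II machinery. Its PHD finger is a small zinc-binding fold that grips the tail of histone H3 when lysine 4 carries 3 methyl groups, a mark found at active promoters. The rest of the protein contains a histone fold that pairs it with another TFIID subunit, so the whole protein can also reach chromatin as part of TFIID. A PHD finger cut away from that context depends on its own contact with histones. The comparison of both forms thus asks where the finger alone was recorded and the whole protein was not.

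There were 25363 distinct positions in PHD WT, 22486 in Full WT, 39292 in Full M880A and 34888 in PHD M880A, backed by between 2085037 and 3651264 reads per library. The flow cell of Full WT differed from the 1 used for the other 3 libraries, so for the choice of these regions the length of TAF3 and the flow cell cannot be told apart. A region without Full WT sites is not shown to lack the protein: a count of 0 allows up to 3 sites, or 0.0133% of the Full WT list, while 4 PHD WT sites make up 0.0158% of theirs. Reads copied by PCR were not counted as molecules, and the 95% intervals below are exact binomial (Clopper-Pearson) or Poisson intervals that cover counting error only. The Poisson intervals treat sites pooled over foci as independent, although several can lie in the same focus, so they may be too narrow. Coordinates are mm9 and include the added 500 bp. No annotation or sequence of mm9 was used here, so the regions are given by position without genes.

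The regions without Full WT sites were mostly at the low end of PHD WT crowding. They held between 4 and 11 PHD WT sites, with a median of 5, against a median of 6 and a maximum of 31 in the other foci. Among them 148 (46.0%) had exactly 4 PHD WT sites, 75 had 5, 55 had 6 and 44 had 7 or more. The share of foci that lacked a Full WT site was lower with more PHD WT sites. It was 28.9% (148 of 512) at 4 sites, 23.1% (75 of 324) at 5 and 22.9% (55 of 240) at 6. It was 11.2% (21 of 187) at 7 sites, 9.73% (11 of 113) at 8, 4.76% (4 of 84) at 9 and 2.92% (8 of 274) at 10 or more. All 149 foci with more than 11 PHD WT sites held a Full WT site, with a median of 5 of them. These values come from the counts that chose the regions and are a description.

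**Figure D1:**
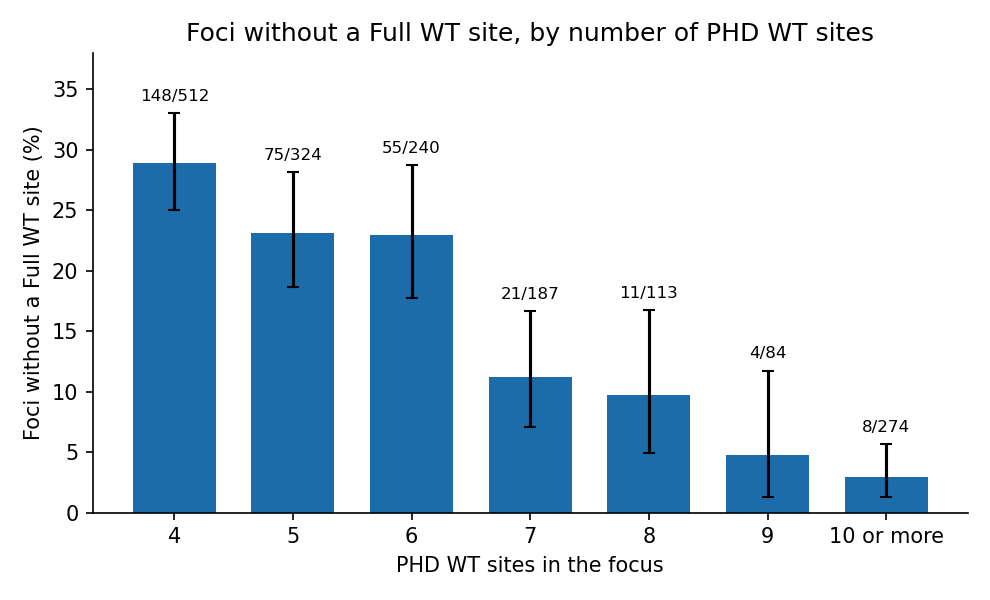
Percent of PHD WT foci that held no Full WT site (vertical axis) by the number of PHD WT sites in the focus (horizontal axis); bars are shares, lines are exact 95% intervals, and the counts above give foci without a Full WT site over all foci. The share is 28.9% at 4 sites and 2.92% at 10 or more.

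Both edges of the rule were gradual. Just below the minimum, 347 of 841 chains of 3 PHD WT sites (41.3%) held no Full WT site. On the other side of the second condition, 384 foci held exactly 1 Full WT site, and they resembled the chosen regions in size: their mean number of PHD WT sites was 5.56, against 5.12 with 0 Full WT sites and 6.23 in the 315 foci with 2. The median distance between the outermost PHD WT sites was 960.5 bp with 0, 998 bp with 1 and 1053 bp with 2 Full WT sites.

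At a given number of PHD WT sites, the regions were about as compact as other foci. With 4 PHD WT sites the median width was 725 bp in regions without Full WT sites and 760 bp in the others, with 5 sites 921 and 941 bp, with 6 sites 1249 and 1144 bp, and with 7 or more 1439 and 1713.5 bp. The narrowest region was chr5:140864089-140865136, where 4 PHD WT sites lay within 48 bp. The widest was chr14:71165058-71168640, with 6 PHD WT sites over 2583 bp. It also held 2 Full M880A sites.

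The PHD WT sites in these regions had read numbers close to those in other foci. Their median was 31 reads (quartiles 5 and 106.75), against 33 (5 and 102) in foci with Full WT sites, and 67.9% and 68.0% of the sites had 10 or more reads. Strands were evenly used, with 818 of 1650 sites (49.6%, 47.1 to 52.0) on the plus strand. All sites were on a single strand in 22 of the 322 regions (6.83%) and in 69 of the 1412 other foci (4.89%). Among foci of 4 PHD WT sites these shares were 10.8% and 12.4%. With thinly read sites left out, 145 of 322 regions (45.0%) kept 4 or more PHD WT sites of at least 10 reads, against 905 of 1412 other foci (64.1%). The regions held fewer PHD WT sites to begin with, and these shares were not matched for that number. In 2 regions every PHD WT site was listed with 2 reads, the lowest number in the list. Of the 1650 sites, 127 (7.70%) lay within 10 bp of another on the same strand and 60 (3.64%) within 10 bp of one on the opposite strand, against 7.24% and 6.34% of the 9951 sites in other foci.

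The 10 regions with the most PHD WT sites are described here as the fullest and not as typical ones. They held 9 to 11 PHD WT sites, against a median of 5 over the 322 regions. In chr8:67210428-67212609 there were 11 PHD WT sites, 2 Full M880A sites and none of Full WT or PHD M880A. Its PHD WT sites began with a plus-strand site of 376 reads, followed after 332 bp by one of 1064 reads and then by 9 more up to 1181 bp from the first, 4 on the plus strand and 7 on the minus strand in all. The nearest Full WT site lay 2115 bp outside the outermost of them. In the plot of the 10 regions each tick is a distinct site, because lines with the same strand and junction were joined beforehand. The plot therefore cannot show whether integrations were stacked at a single position.

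Also with 11 PHD WT sites, chr15:3529990-3533518 held 0 Full M880A and 1 PHD M880A site, but its median PHD WT site had 4 reads. Its nearest Full WT site lay 513 bp from the outermost PHD WT site, just outside the counted region and the closest of any of the 322. On chromosome 2, chr2:154716800-154718573 packed 10 PHD WT sites into 774 bp beside 1 Full M880A site, and chr2:156665471-156668259 had 10 PHD WT sites and no site of any other library. The second of these was 20627 bp from the nearest Full WT site, and the first was 1306 bp from it.

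A pair of these regions were neighbours on chromosome 11. In chr11:48683070-48685376 there were 10 PHD WT and 2 Full M880A sites, and neither of the other libraries had any. The region chr11:48667085-48669833 held 10 PHD WT sites and none of the other 3 libraries. Between them, chr11:48670047-48671939 was a further region without Full WT sites, with 5 PHD WT sites and a gap of 1214 bp to the one before it. From the start of chr11:48667085-48669833 to the end of this middle region there were 15 PHD WT sites, 1 PHD M880A site and none of either full-length library. Those 2 chains were thus split only by the limit of 1000 bp on gaps.

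The remaining 4 of the 10 differed in how close full-length sites came. In chr5:140895011-140897476 there were 10 PHD WT sites and 1 Full M880A site, and 5 Full WT sites lay within 10 kb, the nearest at 636 bp. In chr15:53174404-53177526 there were 10 PHD WT, 3 Full M880A and 2 PHD M880A sites, so that both M880A libraries had sites where Full WT had none, and its nearest Full WT site was 1368 bp away. The region chr15:31529957-31531948 held 9 PHD WT sites of at least 11 reads each, 1 Full M880A and 1 PHD M880A site, at 5400 bp from Full WT. In chr6:7794433-7796855 there were 9 PHD WT sites, 8 of them on the plus strand, and 1 Full M880A site of 2 reads, and no Full WT site lay within 100 kb (the nearest was at 152091 bp).

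**Figure D2:**
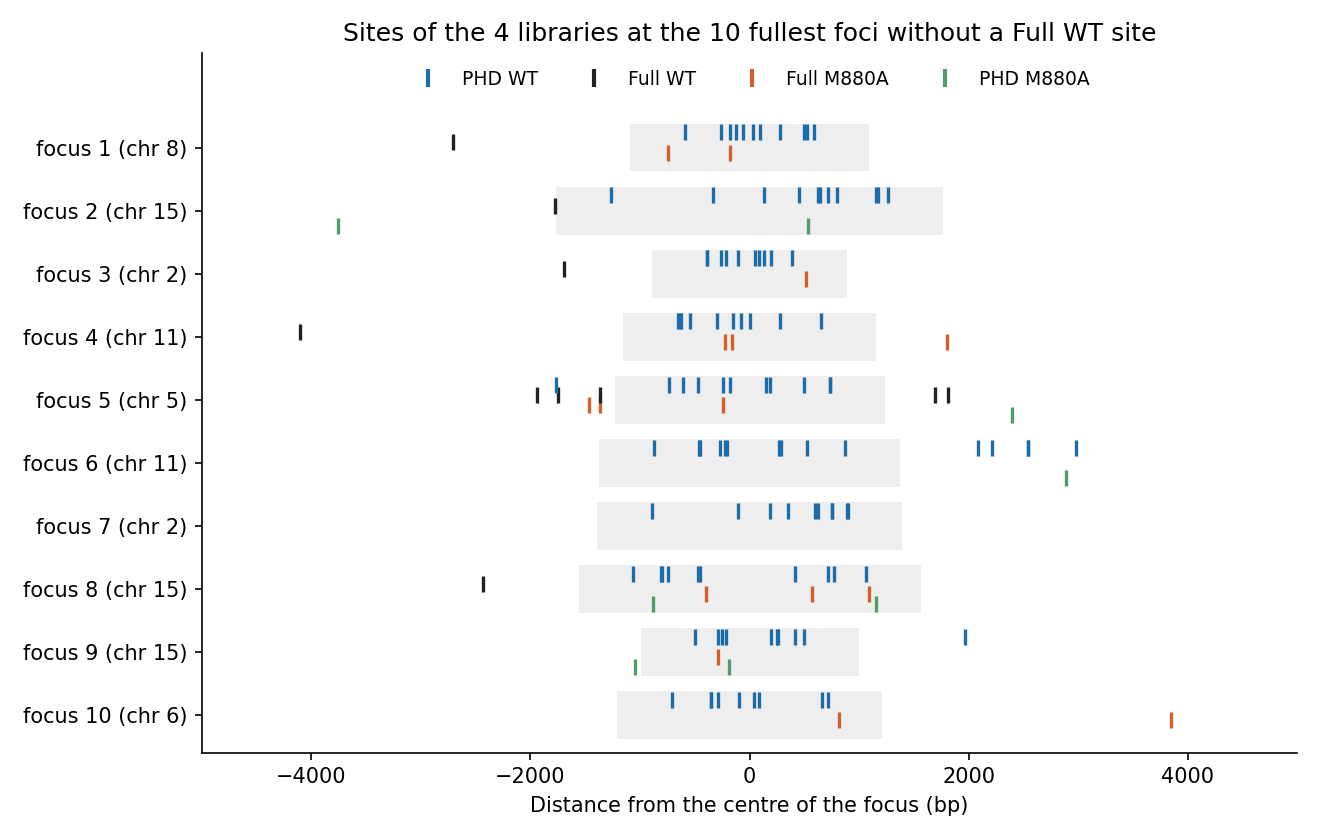
Integration sites of the 4 libraries (coloured ticks) around the 10 regions with the most PHD WT sites, against distance from the centre of the focus in bp; grey boxes are the regions with 500 bp added on each side, and rows follow the rank by number of PHD WT sites. The boxes hold 9 to 11 PHD WT ticks, 0 Full WT ticks, at most 3 Full M880A ticks and at most 2 PHD M880A ticks, and Full WT ticks lie outside several boxes.

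The M880A libraries did not enter the choice of regions, so they show whether other TAF3 fusions used the same places. Full M880A, the full-length protein with the substituted PHD finger, had a site in 153 of the 322 regions, 47.5% (42.0 to 53.1), against 66.3% of all 1734 foci and 70.5% (68.1 to 72.9) of the 1412 foci with Full WT sites. The ratio of the shares was 0.674 (0.598 to 0.759). Because regions without Full WT sites held fewer PHD WT sites, the other foci were also weighted to the same mix of 4, 5, 6 and 7 or more PHD WT sites, which gave 63.8% and a ratio of 0.745 (0.658 to 0.844). The open class of 7 or more is not alike in both, since no region had over 11 PHD WT sites. With weights for each exact number from 4 to 11, chosen after the data were seen, the other foci stood at 63.4% and the ratio at 0.750 (0.662 to 0.849).

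The deficit of Full M880A had the same sign in each class of PHD WT sites (4, 5, 6 and 7 or more), with intervals that did not overlap only at 4. With 4 PHD WT sites, 37.8% (30.0 to 46.2) of regions without Full WT sites held a Full M880A site, against 59.6% (54.4 to 64.7) of the other foci. With 5 it was 44.0% (32.5 to 55.9) against 58.6% (52.2 to 64.8), with 6 it was 58.2% (44.1 to 71.3) against 66.5% (59.2 to 73.2), and with 7 or more it was 72.7% (57.2 to 85.0) against 83.1% (79.9 to 85.9). Per kb of region the Full M880A density was 0.380 (0.334 to 0.431) in the 322 regions and 0.868 (0.836 to 0.900) in the other foci, or 0.716 with the other foci weighted as above.

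PHD M880A, the isolated domain with the substitution, was seen less often than Full M880A in both kinds of foci. It had a site in 72 of the 322 regions, 22.4% (17.9 to 27.3), against 34.7% of all foci and 37.5% (34.9 to 40.0) of those with Full WT sites, a ratio of 0.597 (0.482 to 0.740). Weighted by the 4 classes of PHD WT sites the other foci stood at 30.9% and the ratio at 0.723 (0.579 to 0.903), and weighted by each exact number at 29.8% and 0.750 (0.600 to 0.939). The strata were uneven: 16.2% (10.7 to 23.2) against 26.1% (21.7 to 30.9) at 4 PHD WT sites, 33.3% (22.9 to 45.2) against 26.9% (21.5 to 32.9) at 5, 23.6% (13.2 to 37.0) against 34.6% (27.8 to 41.9) at 6, and 22.7% (11.5 to 37.8) against 49.3% (45.3 to 53.4) at 7 or more. At 5 sites the order was thus the opposite, and only at 7 or more did the intervals not overlap.

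**Figure D3:**
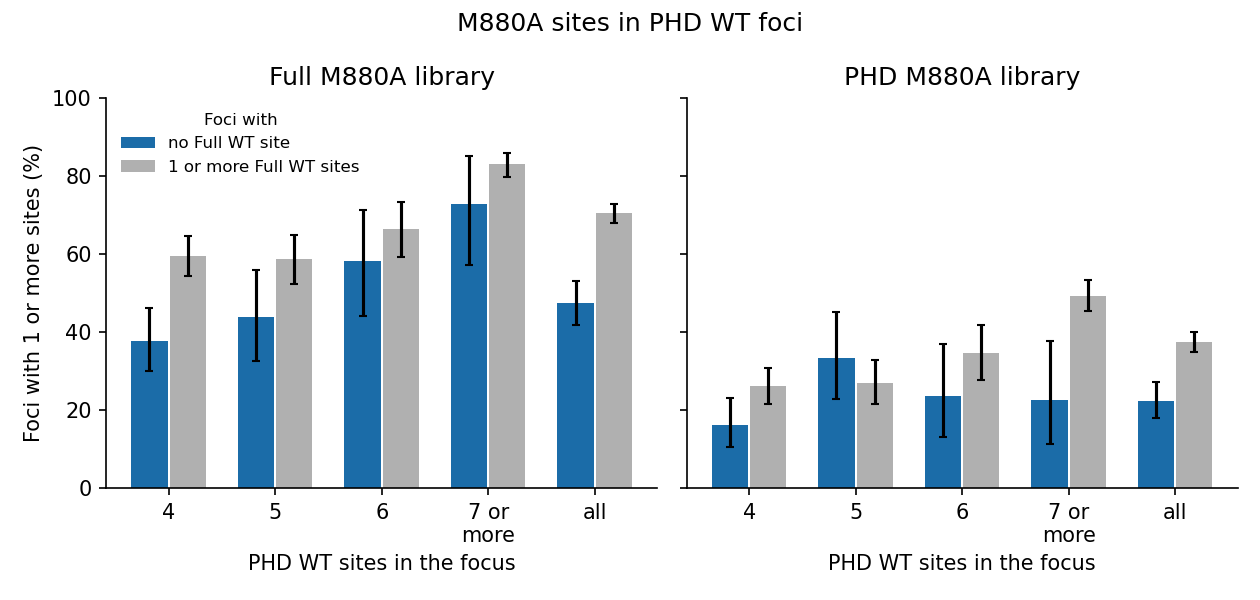
Percent of foci with 1 or more Full M880A sites (left) and PHD M880A sites (right), by the number of PHD WT sites in the focus; blue bars are foci without a Full WT site, grey bars foci with 1 or more, and lines are exact 95% intervals. Over all foci the blue bars stand at 47.5% and 22.4% and the grey bars at 70.5% and 37.5%.

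Both M880A libraries together left 135 of the 322 regions empty, 41.9% (36.5 to 47.5), against 24.7% of all foci and 20.8% (18.7 to 23.0) of the foci with Full WT sites. These 135 regions were seen by the PHD WT library alone and had a median of 4 PHD WT sites. Another 115 regions (35.7%) had Full M880A but no PHD M880A sites, 34 (10.6%) had PHD M880A but no Full M880A sites, and 38 (11.8%) had both, compared with 28.8% with both among the other foci. The regions with both had a median width of 1301 bp, and those with neither 848 bp. Where an M880A site was present there were usually few. Exactly 1 Full M880A site was found in 93 regions (28.9%) and in 26.5% of the other foci. For 2 sites the values were 38 (11.8%) and 16.5%, and for 3 sites 13 (4.04%) and 8.50%. In 9 regions (2.80%) there were 4 or more, against 269 of 1412 other foci (19.1%). No region held more than 3 PHD M880A sites, and 42 of the 1412 other foci (2.97%) did. These shares were not matched for the number of PHD WT sites.

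The share of foci with M880A sites was higher where the focus held more Full WT sites. To hold PHD WT crowding nearly level, only foci of 4 to 6 PHD WT sites are given here. A Full M880A site was present in 43.5% (37.6 to 49.6) of the 278 such foci without Full WT sites, 51.5% (45.7 to 57.3) of the 297 with 1, 56.5% (49.5 to 63.4) of the 207 with 2, 72.6% (66.0 to 78.5) of the 208 with 3 or 4 and 75.6% (65.1 to 84.2) of the 86 with 5 or more. For PHD M880A the shares were 22.3%, 22.2%, 26.1%, 33.2% and 43.0% in the same order. The Full M880A intervals of foci with 0 and with 1 Full WT site overlapped, and the PHD M880A shares of these neighbours were 0.080 percentage points apart.

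The regions with the most Full M880A sites are those where a full-length fusion was recorded in spite of the missing Full WT sites. In chr9:58430340-58432166 there were 5 Full M880A sites beside 6 of PHD WT, with none of PHD M880A, and the nearest Full WT site was 29947 bp away. Its 5 Full M880A sites had between 2 and 83 reads, and 3 of them lay outside the outermost PHD WT site. The region chr3:104591997-104593961 was the only other with 5 Full M880A sites, beside 4 PHD WT sites and 12150 bp from Full WT. In both regions Full WT was absent within 10 kb.

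Next in that order, chr5:73305941-73308057 and chr9:106073162-106075616 held 7 PHD WT and 4 Full M880A sites each, with Full WT at 26441 and 74363 bp. The PHD WT sites of the chromosome 9 region had a median of 224 reads. The region chr4:71859506-71861533 held 5 PHD WT and 4 Full M880A sites with Full WT at 2397 bp. Of its sites, 2 had the same position and strand in both libraries, with 28 and 34 reads in PHD WT and 2 and 3 in Full M880A. These 3 were taken from 7 regions with 4 Full M880A sites by their number of PHD WT sites and width. Of the 7 regions, 2 held a PHD M880A site, neither of them among the 3.

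Identical positions were rare in the regions as a whole. Of the 1650 PHD WT sites, 7 in 6 regions had the same position and strand in Full M880A and 0 in PHD M880A, and both M880A libraries shared the flow cell of PHD WT. In 3 of the 7 the PHD WT site had fewer than 10 reads, and in the chromosome 8 region described first it had 2 reads against 588 in Full M880A. Without these 7 sites, 1 of the 6 regions would have fewer than 4 PHD WT sites. Among the 9951 PHD WT sites of the other foci, 67 recurred in Full M880A, 24 in PHD M880A and 127 in Full WT.

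The regions with the most PHD M880A sites had few of them. In chr3:146162712-146164674 there were 5 PHD WT sites of at least 50 reads each, 3 PHD M880A sites and no Full M880A site, with Full WT at 1079 bp. In chr12:87417362-87420767 there were 8 PHD WT, 3 Full M880A and 2 PHD M880A sites, 28335 bp from Full WT. The region chr12:70992352-70994465 held 7 PHD WT, 1 Full M880A and 2 PHD M880A sites and had Full WT at 520 bp. The region chr10:66647884-66651290 had the same 4 counts, but its PHD WT sites had a median of 4 reads and Full WT was 29975 bp away. In all, 12 regions held 2 PHD M880A sites, and those given here and the chromosome 15 region with 10 PHD WT sites above are the ones among them with the most PHD WT sites.

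The absence of Full WT sites was often local. In 43 of the 322 regions (13.4%) a Full WT site lay within 1 kb of the outermost PHD WT site, in 153 (47.5%) within 10 kb, and in 290 (90.1%) within 100 kb, with a median distance of 10738.5 bp. The shares for positions placed at random were not computed. Within the regions Full WT stood at 0 by the rule, but between 0.5 and 2 kb from the outermost PHD WT site its density was 0.0543 sites per kb per 10000 sites of the library (0.0450 to 0.0651). That was 5.22 times its density between 20 and 50 kb. Around the foci with Full WT sites the Full WT density in this belt was 0.0997 (0.0935 to 0.106), or 6.31 times that between 20 and 50 kb. The PHD WT density in the same belt around the regions was 0.0408 (0.0332 to 0.0496), where the first kb is empty of PHD WT sites because chains end at gaps over 1000 bp.

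Sites of the M880A libraries peaked inside the regions, at lower density than PHD WT. Full M880A had 0.0967 sites per kb per 10000 sites (0.0850 to 0.110) in the regions, 0.0435 (0.0371 to 0.0506) between 0.5 and 2 kb and 0.00715 (0.00656 to 0.00778) between 20 and 50 kb, a 13.5-fold rise from the last to the first. PHD M880A had 0.0381 (0.0305 to 0.0470), 0.0163 (0.0123 to 0.0212) and 0.00674 (0.00613 to 0.00738), a rise of 5.65-fold. In the foci with Full WT sites the same folds were 20.8 and 9.66. PHD WT itself, whose crowding defined the regions, stood at 1.01 inside and 0.0112 between 20 and 50 kb.

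The surroundings of the regions were also less used. Between 20 and 50 kb the density per 10000 sites was 0.0112 for PHD WT, 0.0104 for Full WT, 0.00715 for Full M880A and 0.00674 for PHD M880A around the 322 regions. Around the other foci it was 0.0159, 0.0158, 0.0106 and 0.00832. The belts of neighbouring foci can overlap and hold sites of other foci. Another PHD WT focus lay within 100 kb of 92 of the 322 regions (28.6%) and of 534 of the 1412 other foci (37.8%).

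**Figure D4:**
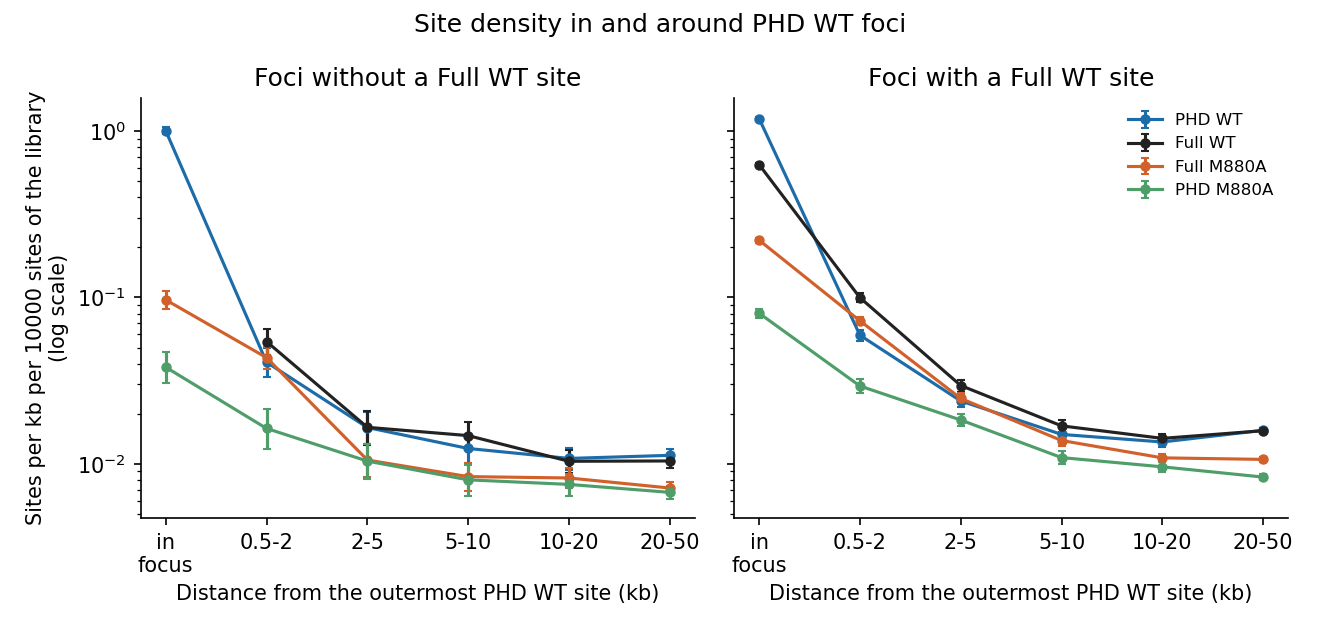
Sites per kb per 10000 sites of each library (log axis) in PHD WT foci and in belts at increasing distance from the outermost PHD WT site, for foci without (left) and with (right) a Full WT site; points are pooled over foci, lines are exact Poisson 95% intervals, and a density of 0 is not drawn. In the regions without Full WT sites, Full M880A stands at 0.0967 and PHD M880A at 0.0381 inside and at 0.00715 and 0.00674 between 20 and 50 kb.

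Distance from Full WT sites did not order the M880A values. A Full M880A site was present in 48 of the 87 regions within 2 kb of a Full WT site (55.2%, 44.1 to 65.9), in 28 of 66 between 2 and 10 kb (42.4%, 30.3 to 55.2), in 60 of 137 between 10 and 100 kb (43.8%, 35.3 to 52.5) and in 17 of 32 beyond 100 kb (53.1%, 34.7 to 70.9). PHD M880A sites were present in 24, 14, 31 and 3 regions in the same order, 27.6%, 21.2%, 22.6% and 9.38% (1.98 to 25.02 for the last). All of these intervals overlap.

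The 3 regions farthest from any Full WT site were small. The region chr9:55388333-55390328 held 4 PHD WT sites and 1 Full M880A site, and the nearest Full WT site was 577884 bp away. The region chr2:140495648-140497277 held 5 PHD WT sites of at least 16 reads and no other site, at 489605 bp. The region chr8:71612757-71614037 held 4 PHD WT sites within 281 bp and 1 Full M880A site, at 304325 bp. Around each of them no Full WT site lay within 100 kb, while Full M880A had 3, 4 and 2 sites and PHD M880A 3, 1 and 2 in that space.

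The regions lay on all 20 chromosomes that held sites, and chromosome 14 had the highest share. There 20 of 47 foci (42.6%, 28.3 to 57.8) had no Full WT site, against 302 of 1687 (17.9%, 16.1 to 19.8) on the other chromosomes, whose single values ran from 12.8% on chromosome 6 to 25.4% on chromosome X. This share uses the counts that chose the regions, and chromosome 14 was picked out after its value was seen among 20, so it is a description. As a whole the chromosome took 2.84% of the Full WT list and 2.86% of the PHD WT list, a ratio of 0.994. On the other chromosomes this ratio lay between 0.864, on X, and 1.06. The 27 chromosome 14 foci with Full WT sites held 3.30 of them on average. Foci without a Full M880A site made up 46.8% (22 of 47) on chromosome 14, 33.4% on the others pooled and at most 44.3% on any of them. Full M880A is not part of the rule, but its absence went with that of Full WT. Over all chromosomes, 52.5% of the regions and 29.5% of the other foci held no Full M880A site, so this value is not separate from the share above.

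The 20 regions on chromosome 14 were spread along it, with the first PHD WT site at 8931087 and the last at 121778110. Of them, 14 lay over 10 kb from a Full WT site, 10 held a Full M880A site and 2 a PHD M880A site. The 47 foci of the chromosome had a mean of 5.96 PHD WT sites, against 6.71 on the others pooled. Whether this number bears on the share without Full WT sites was not tested. The lowest means elsewhere were 5.72 on chromosome 8, 6.00 on chromosome 12 and 6.02 on chromosome 13. There 19.6%, 20.4% and 22.8% of foci had no Full WT site.

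**Figure D5:**
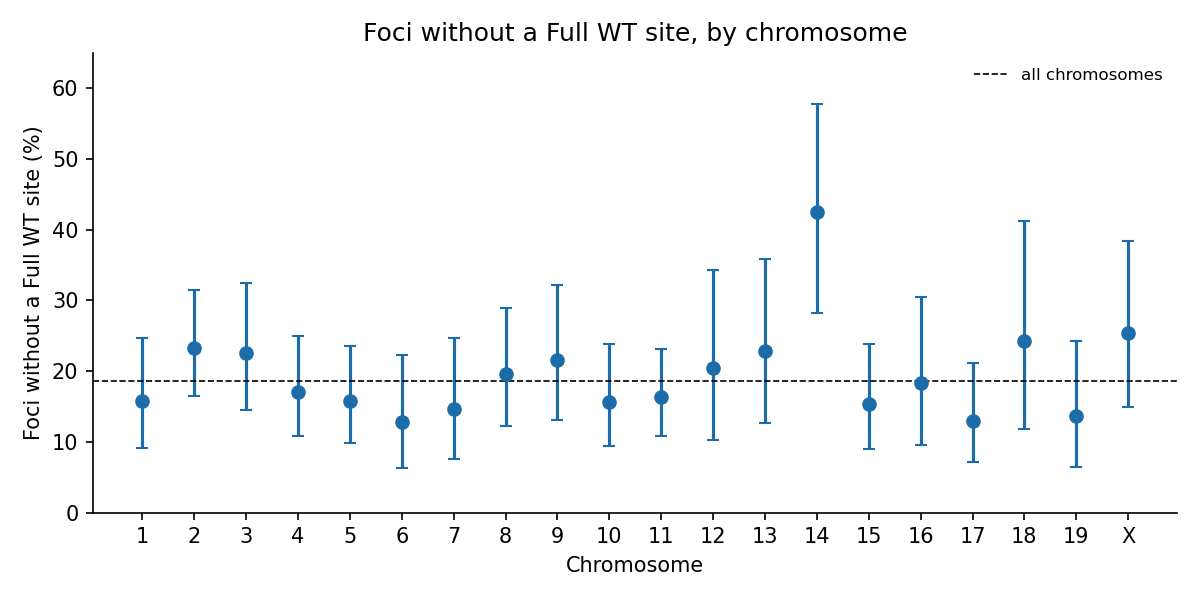
Percent of PHD WT foci without a Full WT site on each chromosome; points are shares, lines are exact 95% intervals, and the dashed line is the share over all 1734 foci. Chromosome 14 stands at 42.6% and the other chromosomes between 12.8% and 25.4%.

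Whether regions without Full WT sites lay next to each other depended on the distance looked at, and these values use the counts of the rule and are a description. At any distance, the nearest other focus was also without Full WT sites for 59 of the 322 regions (18.3%) and for 264 of the 1412 other foci (18.7%), both near the 18.6% of all foci. Where a focus lay within 100 kb, the nearest was without Full WT sites for 21 of 92 regions (22.8%, 14.7 to 32.8) and for 77 of 534 other foci (14.4%, 11.6 to 17.7). Within 10 kb it was so for 6 of 22 (27.3%, 10.7 to 50.2) and 15 of 121 (12.4%, 7.11 to 19.6), and within 5 kb for 6 of 16 (37.5%, 15.2 to 64.6) and 8 of 79 (10.1%, 4.47 to 19.0). The shares were thus higher around the regions at these distances, with intervals that overlap. The 6 regions within 5 kb and within 10 kb are the same ones, 3 pairs counted from both sides. Their intervals treat both partners of a pair as separate, so they are too narrow. Of 386 pairs of consecutive foci within 100 kb, 12 (3.11%) were both without Full WT sites. In 3 of the 12, the same 3 pairs as above, no Full WT site lay between their outer ends. One of these was chr11:48667085-48669833 with chr11:48670047-48671939, at 1214 bp, described above. In another, chr4:147412033-147414249 and chr4:147414576-147416711 held 4 PHD WT sites each at 1327 bp from each other. Neither M880A library had a site in these regions either, and 1 Full M880A site lay in the gap between them. In the last, chr16:5048327-5050174 and chr16:5050690-5052016 held 4 and 5 PHD WT sites at 1516 bp, and neither M880A library had a site in them.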

How the data were processed

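Per the file headers, the authors deposited 1 list of integration sites from paired-end reads per library, and per the submitters' processing notes positions are on mm9 and MACS 1.4.2 was used in a role not given. The aligner and filters were not stated. The deposited score is always 0 and carries nothing. The number after each read name was taken as reads from its values alone, and its minimum is 2, so weaker sites are not listed.

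The junction was the start plus 1 on the plus strand and the end on the minus strand. Lines that shared chromosome, strand and junction became 1 site with their reads summed. Foci were built from all PHD WT sites, without thinning, so counts depend on list length. Regions and comparisons were chosen with earlier results of these data known. Intervals for ratios of shares use the normal approximation on the log scale. Regions named are the 10 with the most PHD WT sites (ties by width), the 5 with the most Full M880A and the 5 with the most PHD M880A sites, the narrowest, the widest, the 3 farthest from Full WT, and pairs chosen after their values were seen. Planned gene, cell type marker and sequence comparisons were not analysed here, since no mm9 annotation or genome was used. Code was tested on simulated data. Calculations used Python 3.11.15, numpy 2.4.6, pandas 2.3.3 and scipy 1.17.1.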

Additional observations from a re-analysis of the deposited data

How the results depend on the processing

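The share of foci without a Full WT site was 18.6%. It was 14.2% with 5 or more and 11.02% with 6 or more PHD WT sites, 30.0% with no bases added and 13.6% with 2000 bp added. The share of such regions with a Full M880A site, 47.5%, was 55.7%, 64.6%, 36.9% and 58.3% under the same settings. The PHD M880A share, 22.4%, was 27.6% with 5 or more PHD WT sites, 14.2% with no bases added and 31.1% with 2000 bp added. The Full M880A ratio to other foci, 0.674, was 0.816 with 6 or more PHD WT sites and 0.593 with no bases added, and the PHD M880A ratio, 0.597, was 0.469 with no bases added. Both unweighted ratios stayed below 1 in all 11 alternatives, from 0.593 to 0.816 and from 0.469 to 0.666. The median width, 960.5 bp, was 637 bp with gaps up to 500 bp, 1249 bp with gaps up to 2000 bp, 1115.5 bp with 5 or more and 1277 bp with 6 or more sites. Width and the share without Full WT sites depend on these settings by construction. The M880A shares depend in part on the bases added, since M880A sites were counted in the same windows. The cause of the other shifts was not tested. With sites of 10 or more reads only, the median reads were 69 in place of 31, and 142 of the 322 regions still overlapped one of the 208 then chosen. Merging positions within 10 bp on either strand was added after the data were seen and moved none of these values beyond its interval. The weights for each exact number of PHD WT sites, added likewise, gave ratios inside the intervals of those weighted by class. No paired analysis was possible because each group has 1 library.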
